A study of Mus musculus with 9 samples.

Results

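The genes described here encode 10 transcription factors of the myeloid lineages, namely *Gfi1*, *Runx2*, *Runx3*, *Cbfb*, *Spi1*, *Cebpa*, *Cebpb*, *Cebpd*, *Cebpe* and *Irf8*. They were chosen by name as the regulators of granulocyte and monocyte fate, and all 10 were found among the 56748 genes of the count table. RNA-seq had been performed on hematopoietic stem cells (HSCs) sorted from the bone marrow of female C57BL/6 mice, in 3 groups of 3 libraries each (n = 3). The first group was young HSCs (yHSCs) from mice of 6 to 10 weeks. The other groups were pre-aged HSCs (paHSCs) from mice of 14 to 16 months, which had been divided by the level of P-selectin (Selp) on the cell surface into Selp_low paHSCs and Selp_high paHSCs. The labels name no transgene, deletion or drug treatment in any group, and the sort for every group took lineage-negative cells with Sca1 and c-Kit, without CD48 and with CD150. The labels call the libraries repeats but do not say which animals they came from or whether cells of several mice were pooled, so p-values measure the spread between these libraries.

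Myeloid fate is set by a small network of these factors. PU.1, the product of *Spi1*, and C/EBPα act early and open the granulocyte and monocyte programs. C/EBPε drives the late granule genes of neutrophils, while GFI1 represses monocyte genes in favor of granulocytes and also holds HSCs in quiescence. IRF8, which binds DNA with PU.1, favors monocytes and dendritic cells and restrains granulocytes, and it is also a factor of B cells. RUNX proteins bind DNA as partners of CBFβ, the product of *Cbfb*, which does not itself contact DNA but raises their affinity.

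Between 24866975 and 35375310 reads were counted on genes in each library. Selp itself was between 20.5 and 30.0 CPM (counts scaled to a common library total by TMM factors) in yHSCs, between 29.3 and 109 CPM in Selp_low paHSCs and between 264 and 652 CPM in Selp_high paHSCs. The lowest Selp_low library, replicate 2, thus lay within the range of the yHSCs. All 13 HSC markers were detected in every library, but so were genes of mature cells. The HSC markers summed to 1246 to 2632 CPM in yHSCs, 934 to 1697 CPM in Selp_low paHSCs and 2381 to 3575 CPM in Selp_high paHSCs, so that the paHSC fractions did not overlap, and the part of this in the comparison of the fractions was not tested. The summed level of 13 neutrophil markers, all detected in every library, was 14664 to 76447 CPM in yHSCs, 406 to 227209 CPM in Selp_low paHSCs and 1191 to 46264 CPM in Selp_high paHSCs. The highest of these libraries was replicate 3 of the Selp_low paHSCs. B cell markers (12 genes, of which *Pax5* was at 0 in 1 library) summed to 176 to 332 CPM in yHSCs, 95.9 to 106201 CPM in Selp_low paHSCs and 386 to 3743 CPM in Selp_high paHSCs, with replicates 1 and 2 of the Selp_low paHSCs the highest. Markers of T and NK cells (13 genes, 9 detected in every library) summed to 411, 1047 and 635 CPM in the Selp_low paHSC libraries, above the 141 to 160.0 CPM of Selp_high paHSCs and the 70.8 to 98.3 CPM of yHSCs. In replicate 3 of the Selp_low paHSCs *Nkg7* gave 619 CPM of that sum, while *Cd3e* was at 0.487 CPM. Red cell markers (9 genes) summed to 318 to 3298 CPM over the 9 libraries. In replicate 2 of the Selp_low paHSCs, 44.8% of the counts belonged to the 10 most abundant genes, against 20.9% in replicate 3 of that group and 3.90% to 12.5% in the other 7 libraries.

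Adjusted for gene length, *Spi1* had the highest mean over the 9 libraries, at 85.7 FPKM (here CPM per kilobase of the gene length in the count table). *Cebpe* followed at 48.1 FPKM, *Cbfb* at 43.5 FPKM and *Cebpb* at 30.6 FPKM. *Irf8* averaged 12.6 FPKM and *Gfi1* 11.03 FPKM. The lowest means were 5.29 FPKM for *Runx3*, 5.18 FPKM for *Cebpd*, 3.12 FPKM for *Runx2* and 2.24 FPKM for *Cebpa*. The library ranges of every pair of neighbors in this order overlapped. Compared within each library, *Cbfb* was above *Cebpb* in all 9, and every other step of the order was reversed in some library. The spread itself differed between the genes. *Cbfb* varied 1.57-fold between its lowest and highest library, whereas *Cebpe* varied 122-fold, *Irf8* 78.8-fold, *Cebpa* 47.9-fold and *Cebpd* 42.9-fold.

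**Figure D1:**
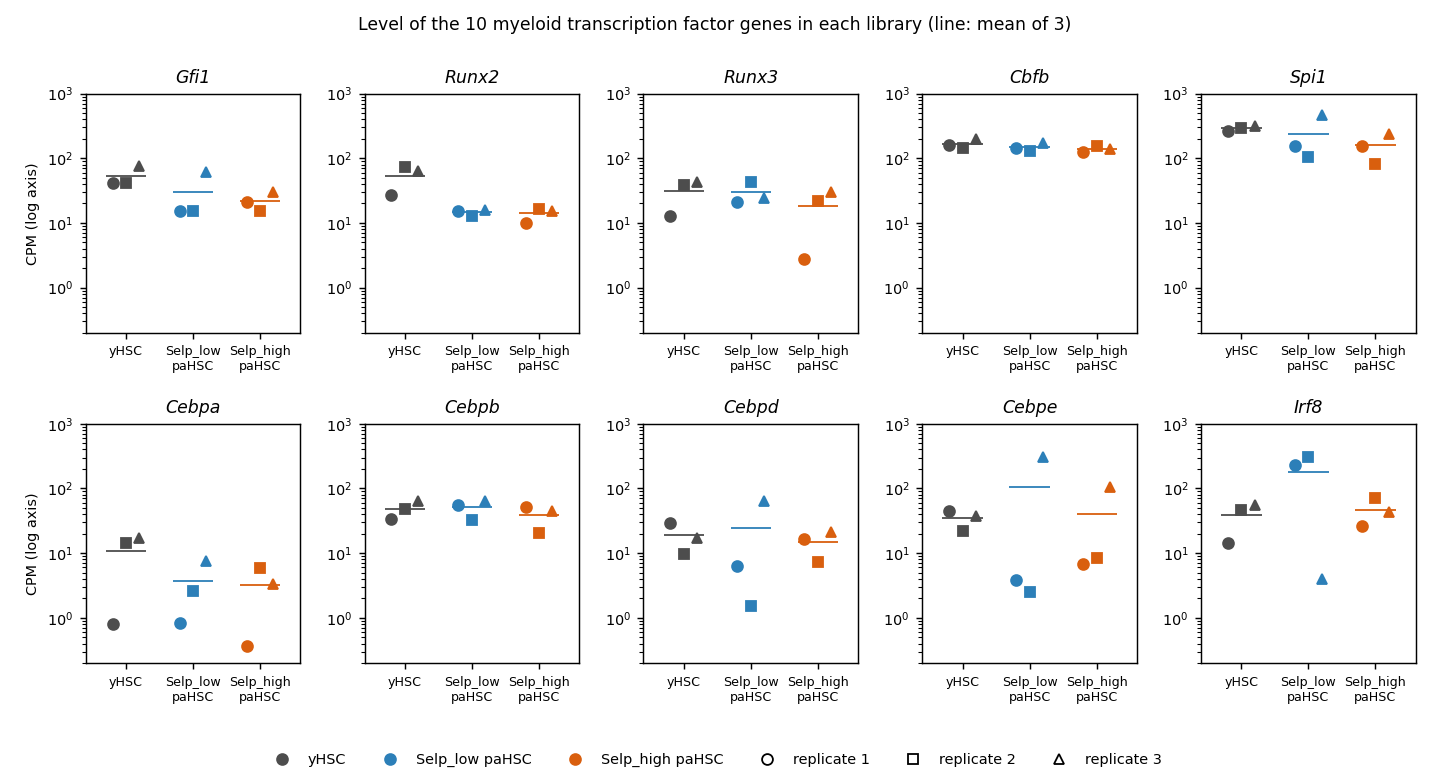
Level of each gene in CPM (log axis) in the 9 libraries, colored by group with 1 symbol shape per replicate number and a line at the mean of each group. *Runx2* is higher in all 3 yHSC libraries than in all 6 paHSC libraries, *Cbfb* is nearly level, and replicate 3 of the Selp_low paHSCs has the highest *Cebpe* and the lowest *Irf8* of the 9.

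The design gives 3 pairwise comparisons, which share libraries and are therefore not independent of each other. A gene was called when its adjusted p was 0.05 or less and its log2 fold change at least 1 in size. Tests were run over all genes with edgeR's quasi-likelihood test and with DESeq2's Wald test, the tool of the study. In these data the tools differed widely in how many genes they called, and both are given. For Selp_high over Selp_low paHSCs, edgeR called 0 of 20370 genes (0%) and DESeq2 582 genes (2.21% of 26368). For Selp_high paHSCs over yHSCs the shares were 0.165% (33 of 20017 genes) by edgeR and 2.99% (605 of 20242) by DESeq2. For Selp_low paHSCs over yHSCs they were 0% (0 of 20437) and 2.89% (519 of 17942). edgeR gave 2555, 1519 and 2306 genes, in the same order, at an unadjusted p under 0.05. With 3 libraries against 3, an exact permutation test of a single gene cannot go below p = 0.1, so none was used.

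edgeR called none of the 10 genes in any comparison, with 0, 3 and 1 of them at an unadjusted p under 0.05. DESeq2 called 0 of 10 between the paHSC fractions, 2 of 10 between Selp_high paHSCs and yHSCs (*Gfi1* and *Runx2*, both lower) and 1 of 10 between Selp_low paHSCs and yHSCs (*Runx2*, lower). Both genes also appear among examples that the study drew from these libraries, so their difference here is not independent evidence. Fold changes of the 10 genes had a median of -0.54 on the log2 scale for Selp_high over Selp_low paHSCs, where the median of all genes was -0.11, and all 10 were below 0. The median was -0.60 for Selp_high paHSCs over yHSCs (8 of 10 below 0, all genes -0.03). For Selp_low paHSCs over yHSCs it was -0.07, with 6 of 10 below 0 and a median of 0.08 over all genes.

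**Figure D2:**
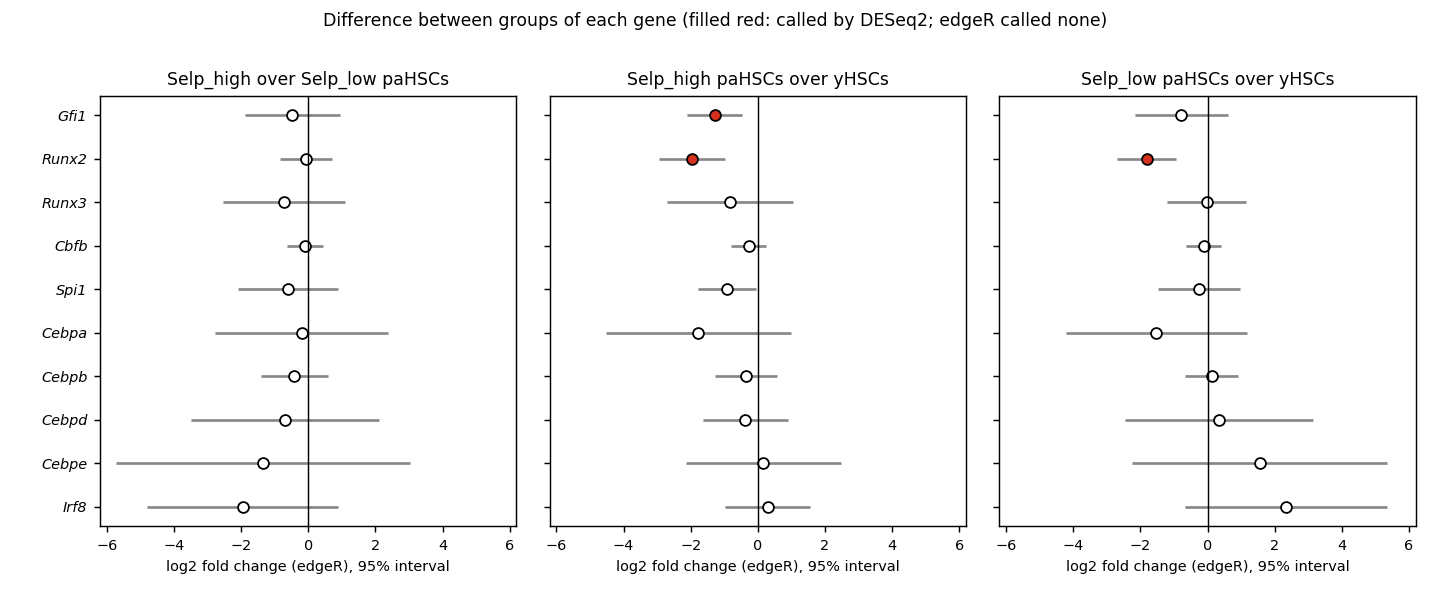
Log2 fold change of each gene by edgeR (horizontal axis, points) with its 95% interval (lines) in the 3 comparisons, red where DESeq2 called the gene. *Runx2* and *Gfi1* are the called genes. The intervals of *Cebpe*, *Cebpa*, *Cebpd* and *Irf8* span several log2 units wherever Selp_low paHSCs are compared. Those of *Cebpe* and *Cebpa* do so for Selp_high paHSCs over yHSCs as well.

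*Runx2* was the gene of the 10 that DESeq2 called in both comparisons with yHSCs. It lies on the minus strand of chr17:44806874-45125684 (mm39) and encodes the RUNX factor best known as the master regulator of bone formation, which is also expressed in early hematopoietic progenitors. Its level was 27.2, 72.5 and 62.5 CPM in the yHSC libraries, 15.5, 12.9 and 15.7 CPM in the Selp_low paHSC libraries and 9.999, 16.6 and 15.5 CPM in the Selp_high paHSC libraries. Every yHSC library was above every paHSC library, while the ranges of both paHSC fractions overlapped. The yHSC libraries averaged 54.1 ± 23.8 CPM (SD, n = 3), the Selp_low paHSC libraries 14.7 ± 1.56 CPM and the Selp_high paHSC libraries 14.1 ± 3.56 CPM. In bulk RNA a lower level from fewer cells that express a gene cannot be told apart from less RNA in each cell.

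The log2 fold change of *Runx2* in Selp_high paHSCs over yHSCs was -1.97 ± 0.42 (SE) by edgeR, with a 95% interval of -2.96 to -0.97 and an adjusted p of 0.190. DESeq2 gave -1.96 with an adjusted p of 0.000878. In Selp_low paHSCs over yHSCs it was -1.82 ± 0.37 by edgeR (95% interval -2.70 to -0.94, adjusted p = 0.332) and -1.85 by DESeq2 (adjusted p = 0.0131). Between the paHSC fractions the difference was -0.07 ± 0.32 by edgeR, with an interval of -0.84 to 0.69. *Runx2* was 1 of 3 genes of the 10 whose libraries did not overlap between Selp_high paHSCs and yHSCs, where 13.8% of all genes tested did not overlap. It was the 1 gene of 10 without overlap between Selp_low paHSCs and yHSCs, where the share of all genes was 16.3%.

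The difference of *Runx2* from yHSCs kept its direction under every alternative run, while some calls were lost. DESeq2 called it in 9 of 10 settings for Selp_high paHSCs, with log2 fold changes of -2.24 to -1.66, and in 7 of 10 for Selp_low paHSCs, with -2.14 to -1.67. Its groups did not overlap with all libraries in either comparison, so leaving out a library could not make them overlap. Without yHSC replicate 2 the adjusted p by DESeq2 was 0.0726 for Selp_high paHSCs and 0.195 for Selp_low paHSCs. Without yHSC replicate 3 the second of these comparisons gave 0.229, and without Selp_low replicate 2 it gave 0.108. With no filter on low counts, edgeR called *Runx2* lower in Selp_high paHSCs (adjusted p = 0.00473) and in Selp_low paHSCs (adjusted p = 0.0293) than in yHSCs. In that setting edgeR called 1.14% and 0.836% of all genes, against 0.165% and 0% with the filter. Its Pearson correlation with the summed neutrophil markers over the 9 libraries was 0.27 on log2 values, and with the B cell markers -0.39. Of the 3 genes without overlap between Selp_high paHSCs and yHSCs, it had the weakest correlations with both of these marker sums. With the T and NK cell markers its correlation was -0.65, with megakaryocyte markers -0.62 and with red cell markers -0.59. With the monocyte, macrophage and dendritic cell markers it was 0.47, and with the HSC markers 0.11. The part of such cells in the level of *Runx2* was not tested.

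Reads of *Runx2* may be shared with its neighbors, since *Supt3* (265 to 1920 counts) and 3 antisense RNAs lie within or across it on the other strand, and no source used here states whether strand was considered in counting. The bases before a start site of *Runx2* are shown because the gene separated young from pre-aged cells. RefSeq's table for GRCm38.p6, another build than the counts, holds 1 start on the minus strand, with its 250 preceding bases at chr17:44814628-44814877. Capitals mark a RUNX motif (TGTGGT, read here on the opposite strand, beginning 80 bases before the start) and a C/EBP motif (TTGCNNAA, beginning 48 bases before the start).

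Runx2: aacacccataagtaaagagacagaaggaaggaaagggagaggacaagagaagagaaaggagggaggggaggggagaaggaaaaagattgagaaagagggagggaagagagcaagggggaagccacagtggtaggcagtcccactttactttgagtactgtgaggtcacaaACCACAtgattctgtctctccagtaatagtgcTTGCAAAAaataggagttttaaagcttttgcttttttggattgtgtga

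Over all 32851 windows of this length in the table, read on both strands, 14% held TGTGGT and 9.56% held TTGCNNAA. A match of letters is a description of the window and was not tested as a binding site.

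*Runx3*, a RUNX factor of cytotoxic lymphocytes and of dendritic cells (chr4:134847963-134905301), showed no such separation. It was at 12.9, 38.9 and 43.5 CPM in yHSCs, 21.1, 43.2 and 24.5 CPM in Selp_low paHSCs and 2.79, 21.6 and 30.0 CPM in Selp_high paHSCs. Replicate 1 held the lowest level in each group, and the groups overlapped throughout. The largest of its differences was -0.83 ± 0.80 on the log2 scale for Selp_high paHSCs over yHSCs (edgeR, adjusted p = 0.975). Per length, *Runx2* was 0.814 to 1.19 times *Runx3* in yHSC libraries and 0.169 to 0.414 times in Selp_low paHSC libraries. In Selp_high paHSCs the ratio was 0.294 to 2.03.

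*Cbfb* (chr8:105897306-105944621) was the steadiest of the 10 genes. Its 9 values ran from 125 CPM in a Selp_high paHSC library to 195 CPM in a yHSC library, with means of 166 ± 26.0 CPM in yHSCs, 149 ± 20.2 CPM in Selp_low paHSCs and 140 ± 15.6 CPM in Selp_high paHSCs (SD, n = 3 each). The interval of the difference between Selp_high paHSCs and yHSCs was -0.79 to 0.24 by edgeR, and that between the paHSC fractions -0.65 to 0.45. The intervals of *Cbfb* lay within 1 log2 unit of 0 in all 3 comparisons, whereas those of *Runx2* against yHSCs reached below -2.

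*Gfi1*, on the minus strand of chr5:107864523-107873902, encodes a zinc finger repressor that recruits histone demethylase and deacetylase complexes. Its level was 41.1, 42.0 and 76.3 CPM in yHSCs, 15.3, 15.3 and 60.6 CPM in Selp_low paHSCs and 21.0, 15.3 and 29.6 CPM in Selp_high paHSCs. All yHSC libraries lay above all Selp_high paHSC libraries. In Selp_low paHSCs 2 libraries lay below every yHSC library, and replicate 3 lay among them. The log2 fold change in Selp_high paHSCs over yHSCs was -1.29 ± 0.35 by edgeR (95% interval -2.12 to -0.46, adjusted p = 0.332) and -1.30 by DESeq2 (adjusted p = 0.0333).

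That call was not stable. Leaving out yHSC replicate 2 gave an adjusted p of 0.166 by DESeq2, and leaving out yHSC replicate 3 gave 0.417. When Selp_high replicate 1 or 2 was omitted, DESeq2 gave adjusted p-values of 0.116 and 0.114. It was 0.0674 without DESeq2's independent filtering and 0.421 in a fit of all 9 libraries. For Selp_low paHSCs over yHSCs the log2 fold change was -0.78 ± 0.58 (edgeR, adjusted p = 0.718). Without Selp_low replicate 3, the library with the highest neutrophil markers, DESeq2 gave -1.75 with an adjusted p of 0.000303, and edgeR -1.80 with an adjusted p of 0.137. Between the paHSC fractions the difference was -0.47 ± 0.60 with all libraries and turned to 0.51 ± 0.39 without that library (edgeR).

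Levels of *Gfi1* moved with markers of mature cells across the 9 libraries, with a Pearson correlation on log2 values of 0.79 with the summed neutrophil markers and -0.79 with the B cell markers. All values share libraries and scaling, and the part of those cells in the difference was not tested. The genes whose pattern over the 9 libraries was most like that of *Gfi1* were *Gna15* (r = 0.98), *Pold3* (r = 0.96) and *Nfil3* (r = 0.96), among 13113 protein-coding candidates with a mean of at least 1 CPM. For *Runx2* they were *Zfp608* (r = 0.97), *Phf14* (r = 0.97) and *Parp8* (r = 0.95). No gene was among the nearest of both.

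The table holds 2 start sites for *Gfi1*. The window before the first (GRCm38.p6, minus strand, chr5:107725806-107726055) is shown because it held a C/EBP motif, in capitals, beginning 143 bases before the start. The window before the other start held none of the motifs searched.

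Gfi1: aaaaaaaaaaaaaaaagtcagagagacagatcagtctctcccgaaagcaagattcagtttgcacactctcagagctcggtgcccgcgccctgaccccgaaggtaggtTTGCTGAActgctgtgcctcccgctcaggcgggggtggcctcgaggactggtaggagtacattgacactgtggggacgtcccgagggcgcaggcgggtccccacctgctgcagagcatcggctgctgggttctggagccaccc

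*Spi1* (chr2:90912735-90946101) was at 266, 297 and 315 CPM in yHSCs, 157, 105 and 462 CPM in Selp_low paHSCs and 153, 82.2 and 240.2 CPM in Selp_high paHSCs. It was the third gene whose yHSC libraries all lay above the Selp_high paHSC libraries, and yHSCs had the tightest values (293 ± 24.86 CPM, against 159 ± 79.1 CPM in Selp_high paHSCs and 241 ± 193 CPM in Selp_low paHSCs). The difference of -0.92 ± 0.37 on the log2 scale (edgeR, 95% interval -1.79 to -0.05) had an adjusted p of 0.622, and 0.357 by DESeq2. Without Selp_high replicate 3, which had the highest neutrophil markers of its group, DESeq2 called *Spi1* lower (-1.34, adjusted p = 0.0216), with 4.36% of all genes called. Against Selp_low paHSCs, the interval for Selp_high paHSCs was -2.09 to 0.87 (edgeR). The most similar genes were *Tnf* (r = 0.97), *Diaph2* (r = 0.96) and *Ccdc125* (r = 0.96), and *Spi1* correlated with the neutrophil markers at r = 0.91.

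The 4 C/EBP genes did not behave alike. *Cebpa* (chr7:34818718-34821353), the early granulocyte factor, was the lowest of the 10 genes per length. It was at 0.812, 14.5 and 17.3 CPM in yHSCs, 0.819, 2.57 and 7.57 CPM in Selp_low paHSCs and 0.362, 5.86 and 3.29 CPM in Selp_high paHSCs. In each group replicate 1 held the lowest level, which was near or below 1 CPM but above the floor of 0.0695 to 0.198 CPM that 3 counts set in these libraries. The other yHSC libraries stood above all 6 paHSC libraries. With all libraries the log2 fold change was -1.77 ± 1.18 in Selp_high paHSCs over yHSCs (edgeR, adjusted p = 0.884) and -1.52 ± 1.13 in Selp_low paHSCs over yHSCs (adjusted p = 0.714). *Cebpa* varied most like *Rbpj* (r = 0.99), *Msl2* (r = 0.99) and *Tlk2* (r = 0.99), and hardly with the neutrophil markers (r = 0.15).

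*Cebpb* (chr2:167530835-167532338), a factor of inflammatory and emergency granulopoiesis, was at 33.4, 47.8 and 64.4 CPM in yHSCs, 56.1, 32.4 and 64.9 CPM in Selp_low paHSCs and 50.9, 20.4 and 44.3 CPM in Selp_high paHSCs. The groups overlapped in all 3 comparisons. Its differences were -0.42, -0.35 and 0.12 on the log2 scale for Selp_high over Selp_low paHSCs, Selp_high paHSCs over yHSCs and Selp_low paHSCs over yHSCs. The 95% intervals by edgeR were -1.41 to 0.57, -1.27 to 0.57 and -0.67 to 0.92. The protein-coding gene *Peds1* (841 to 2637 counts) overlaps *Cebpb* on the other strand, as *Spidr* (431 to 1989 counts) does *Cebpd*, and 7 of the 10 genes overlap another gene of the count table.

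*Cebpe* (chr14:54947817-54949631, minus strand) had the widest range. It was at 44.9, 22.0 and 37.9 CPM in yHSCs, 3.80, 2.50 and 304 CPM in Selp_low paHSCs and 6.85, 8.55 and 107 CPM in Selp_high paHSCs. Replicate 3 of each paHSC fraction was above every yHSC library, and the other 4 paHSC libraries were below every yHSC library. The log2 fold change was therefore poorly determined, at -1.34 ± 1.85 for Selp_high over Selp_low paHSCs and 1.55 ± 1.59 for Selp_low paHSCs over yHSCs (edgeR, adjusted p = 0.799 and 0.846). DESeq2 gave no adjusted p in these comparisons (NA).

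*Cebpd* (chr16:15705150-15708895), an acute-phase C/EBP factor, followed *Cebpe* (r = 0.87 over the 9 libraries). It was at 29.7, 9.85 and 17.1 CPM in yHSCs, 6.29, 1.52 and 65.0 CPM in Selp_low paHSCs and 16.7, 7.19 and 21.2 CPM in Selp_high paHSCs. The Selp_low paHSC libraries lay on both sides of the other groups. Its fold changes of -0.69, -0.38 and 0.34 on the log2 scale, in the order given for *Cebpb*, had adjusted p-values of 0.844, 0.998 and 0.988 by edgeR. Summed neutrophil markers correlated with *Cebpd* at r = 0.93 and with *Cebpe* at r = 0.91, and the part of neutrophil RNA in their levels was not tested.

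*Irf8* (chr8:121463097-121483433) ran the other way. It was at 14.5, 45.6 and 55.1 CPM in yHSCs, 228, 310.0 and 3.93 CPM in Selp_low paHSCs and 26.2, 71.8 and 43.4 CPM in Selp_high paHSCs. Replicates 1 and 2 of the Selp_low paHSCs stood above the other 7 libraries, of which replicate 3 of the same group was the lowest. The log2 fold change was -1.95 ± 1.20 for Selp_high over Selp_low paHSCs (edgeR, 95% interval -4.80 to 0.90, adjusted p = 0.553; DESeq2 adjusted p = 0.363). For Selp_low paHSCs over yHSCs it was 2.33 ± 1.26 (adjusted p = 0.557 by edgeR and 0.320 by DESeq2). Selp_high paHSCs and yHSCs overlapped, with a difference of 0.29 ± 0.54 and an interval of -0.98 to 1.56.

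*Irf8* correlated with the summed B cell markers at r = 0.87 and with the neutrophil markers at r = -0.83, and its correlation with *Cebpd* was -0.93. The correlation of *Irf8* with the monocyte, macrophage and dendritic cell markers was 0.42. The B cell gene *Cd79a*, which encodes a chain of the B cell receptor, was at 2494 CPM in replicate 1 and at 4243 CPM in replicate 2 of the Selp_low paHSCs. In replicate 3 it was at 8.73 CPM. Monocyte, macrophage and dendritic cell markers, of which 10 of 13 were detected in every library, summed to 31.6 to 110 CPM in Selp_low paHSCs, 111 to 434 CPM in Selp_high paHSCs and 138 to 309 CPM in yHSCs. Among the genes of this list, the dendritic cell gene *Xcr1* was at 0 in 5 libraries. The part of B cells in the level of *Irf8* was not tested.

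Per length, the ratio of *Gfi1* to *Irf8* was 2.04 to 6.29 in yHSCs and 0.473 to 1.77 in Selp_high paHSCs. It was 0.149, 0.110 and 34.1 in the Selp_low paHSC libraries. The ratio was thus higher in each yHSC library than in each Selp_high paHSC library, while Selp_low paHSCs spanned the whole range of the series. The ratio of *Cebpe* to *Irf8* spanned 0.0459 to 440 within the Selp_low paHSCs.

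A window of *Irf8* is shown because it held the GFI1 motif AAATCAC, read on the opposite strand (in capitals, beginning 176 bases before the start), and because *Gfi1* and *Irf8* ran in opposite directions over the libraries (r = -0.67). *Irf8* ran more strongly opposite to *Cebpd* (r = -0.93), *Cebpe* (r = -0.83) and *Spi1* (r = -0.70). *Gfi1* and *Irf8* also correlated with opposite signs with the neutrophil marker sum (0.79 and -0.83) and the B cell marker sum (-0.79 and 0.87). Whether GFI1 acts on *Irf8* was not tested. The window lies at chr8:120736108-120736357 on the plus strand of GRCm38.p6. The window before the other start of *Irf8* held none of the motifs searched.

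Irf8: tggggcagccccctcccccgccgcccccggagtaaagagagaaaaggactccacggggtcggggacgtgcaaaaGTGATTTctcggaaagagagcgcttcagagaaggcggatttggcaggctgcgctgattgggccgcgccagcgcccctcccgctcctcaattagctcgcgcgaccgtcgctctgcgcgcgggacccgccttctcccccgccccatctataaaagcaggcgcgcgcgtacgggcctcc

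This motif was present in 2.75% of all windows. Of the 10 windows of 7 of the genes in the table, 1 held it, 2 held the C/EBP motif, 2 the RUNX motif, 1 the PU.1 motif GAGGAAG (10.6% of all windows) and 0 the ETS-IRF motif GGAANNGAA (6.99% of all windows). The second RUNX match lay before *Runx3* and the PU.1 match before *Cbfb*. Windows of *Spi1*, *Cebpd* and *Cebpe* were not analysed here.

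**Figure D3:**
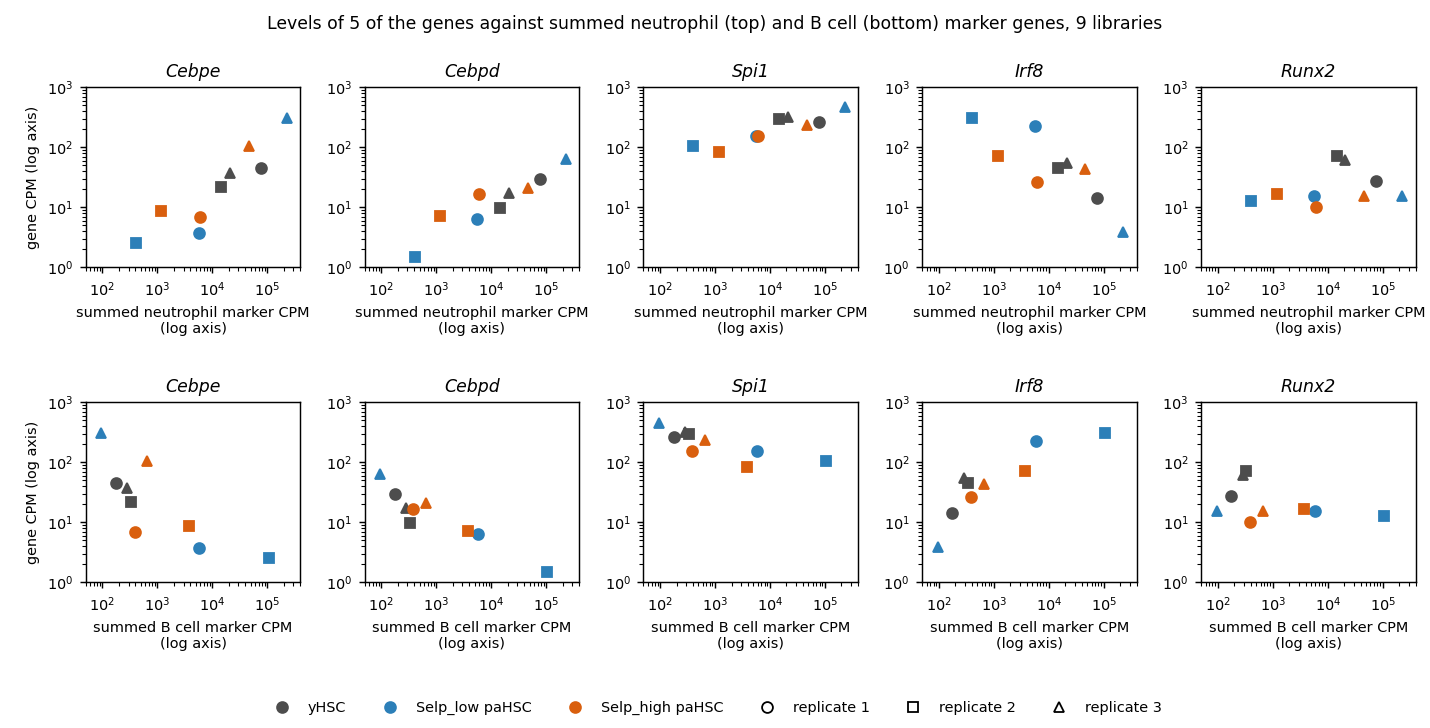
CPM of *Cebpe*, *Cebpd*, *Spi1*, *Irf8* and *Runx2* (vertical axes, log) in the 9 libraries against the summed CPM of 13 neutrophil markers (top row) or 12 B cell markers (bottom row, log axes), colored by group. The first 3 genes rise along the neutrophil axis, *Irf8* rises along the B cell axis, and *Runx2* follows neither axis closely (r = 0.27 and -0.39).

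Replicate 3 of the Selp_low paHSCs decided much of what the comparisons with that group gave for the 10 genes. Without Selp_low replicate 3, DESeq2 called 6 of the 10 genes between Selp_low paHSCs and yHSCs, where the count with all libraries was 1. Calls over all genes rose as well, to 8.43% (1565 of 18567). *Gfi1* and *Runx2* (-1.90, adjusted p = 0.00341) were lower, as were *Spi1* (-1.14, adjusted p = 0.0127), *Cebpd* (-2.28, adjusted p = 0.0368) and *Cebpe* (-3.46, adjusted p = 9.73e-10). *Irf8* was higher (2.86, adjusted p = 2.47e-05). The libraries of 7 of 10 genes then did not overlap, where the share of all genes was 32.9%. edgeR called none of these, its lowest adjusted p among the 10 being 0.0523 for *Cebpe*. Over all genes, DESeq2's calls rose further, to 9.14%, when yHSC replicate 1 was left out instead.

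Between the paHSC fractions, 0 of 10 genes were without overlap with all libraries, where 20.9% of all genes did not overlap. Without Selp_low replicate 3 there were 3 of 10 (37.5% of all genes). DESeq2 then called 5.43% of all genes, among them *Cebpe* higher (3.64, adjusted p = 0.0143) and *Irf8* lower (-2.54, adjusted p = 0.000152) in Selp_high paHSCs. *Cebpe* thus reversed its sign, as did *Cebpd* (1.92), *Cebpa* (0.91), *Gfi1*, *Spi1* (0.26) and *Cbfb* (0.01) by edgeR. That all 10 fold changes were below 0 in this comparison depended on that library, and it did not hold in other settings either. With the replicate number as a block *Cebpd* was at 0.70 and *Cebpe* at 0.34, and without Selp_high replicate 1 *Runx2* was at 0.12 and *Cebpa* at 0.32 (edgeR). Over all genes, DESeq2 called more between the fractions without Selp_high replicate 2 (8.58%) than without Selp_low replicate 3.

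**Figure D4:**
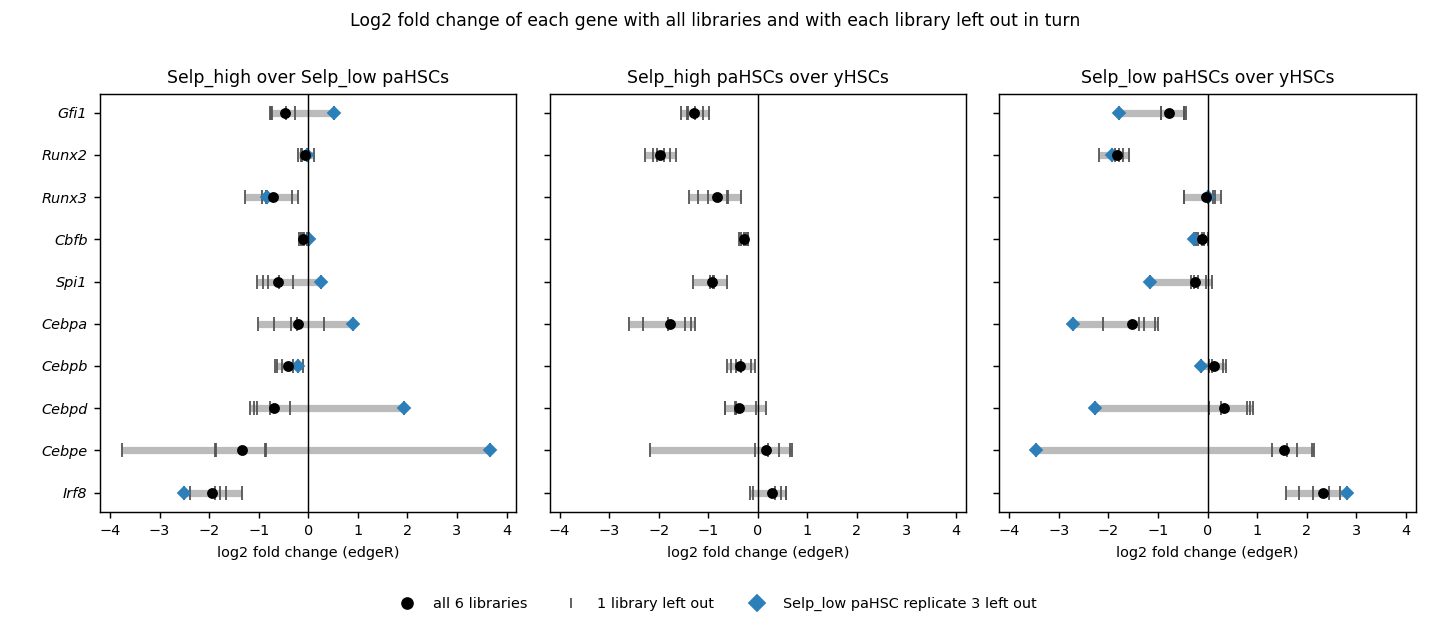
Log2 fold change by edgeR of each gene with all 6 libraries of a comparison (black), with each library left out in turn (ticks, grey range) and without replicate 3 of the Selp_low paHSCs (blue). *Cebpe* moves from -1.34 to 3.67 between the paHSC fractions and from 1.55 to -3.46 against yHSCs when that library is left out, and *Runx2* hardly moves.

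Related genes were followed in 3 lists written from general knowledge. Values in parentheses are the log2 fold change and adjusted p of DESeq2 unless edgeR is named. Of 24 partners and regulators of the factors, edgeR called 0 in each comparison. DESeq2 called 1 of 24 between the paHSC fractions, the ETS factor *Ets1*, which was lower in Selp_high paHSCs (-2.50 ± 0.65 on the log2 scale, SE, adjusted p = 0.0120). *Ets1* was at 18.5, 59.9 and 46.0 CPM in Selp_high paHSCs and at 281, 316 and 89.9 CPM in Selp_low paHSCs. It was also higher in Selp_low paHSCs than in yHSCs (2.28, DESeq2 adjusted p = 0.00736), where it was at 48.6, 43.3 and 50.3 CPM. All 3 Selp_low libraries were thus above the other groups, as they were for the summed T and NK cell markers. In replicate 3, however, nearly all of that sum came from *Nkg7*, as given above. Replicates 1 and 2, with the highest B cell markers, were above replicate 3 for *Ets1*. The part of lymphocytes in the level of *Ets1* was not tested.

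Between Selp_high paHSCs and yHSCs DESeq2 called 3 of the 24. *Runx1t1*, a corepressor known from its fusion with RUNX1 in leukemia, was higher at 21.5, 17.6 and 9.77 CPM against 5.92, 1.07 and 2.93 CPM (2.22, adjusted p = 0.0401). *Gfi1b*, the close relative of *Gfi1* in the megakaryocyte and erythroid lineages, was higher at 253, 231 and 179 CPM against 112, 80.2 and 70.1 CPM (1.27 ± 0.38, adjusted p = 0.0294 by DESeq2, and 0.221 by edgeR). *Gfi1* and *Gfi1b* therefore differed between these groups with opposite signs and about equal size. *Jun*, an AP-1 subunit that pairs with C/EBP and PU.1, was lower (-1.34, adjusted p = 0.0359), at 952, 396 and 554 CPM against 1572, 1309 and 1778 CPM. Megakaryocyte markers (8 genes, *Gp1bb* at 0 in the 3 yHSC libraries) summed to 1140 to 6274 CPM in Selp_high paHSCs and 126 to 191 CPM in yHSCs, and their part in the level of *Gfi1b* was not tested.

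Of 16 other myeloid transcription factors, edgeR called 0 in each comparison, and DESeq2 called 0 between the paHSC fractions and 0 in Selp_high paHSCs over yHSCs. The early response factors *Egr1* and *Klf4* were not called. Their log2 fold changes in Selp_high paHSCs over yHSCs were -1.44 ± 0.60 and -2.27 ± 0.85 by edgeR, with adjusted p-values of 0.643 and 0.573. All 3 *Egr1* values of the Selp_high paHSCs (1533, 249 and 814 CPM) were below those of the yHSCs (1545, 2755 and 2592 CPM), by a narrow margin in replicate 1 of each.

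Of 26 receptor, granule and effector genes, edgeR again called 0. In Selp_high paHSCs over yHSCs, DESeq2 called the azurophil granule genes *Ctsg* (2.27, adjusted p = 4.95e-06) and *Mpo* (1.68, adjusted p = 0.0250) higher. *Ctsg*, encoding cathepsin G, was at 42.6, 47.3 and 41.7 CPM in Selp_high paHSCs and at 12.0, 6.14 and 7.82 CPM in yHSCs (edgeR adjusted p = 0.0888, the lowest of the 26 genes in this comparison). *Mpo*, encoding myeloperoxidase, was at 484, 374 and 1196 CPM against 224, 158 and 230.2 CPM. Both genes are made early in granulocyte development.

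In Selp_low paHSCs over yHSCs, DESeq2 called *Ctsg* (4.32, adjusted p = 0.0134) and *Ly86* (3.78, adjusted p = 0.0291) higher and the receptor gene *Csf1r* lower (-2.69, adjusted p = 0.00686). *Ctsg* was at 6.88, 30.6 and 500.1 CPM in the Selp_low libraries and *Ly86*, which encodes a partner of a Toll-like receptor relative on B cells and monocytes, at 171, 148 and 1.39 CPM. Each thus rested on some libraries of the group, replicate 3 for *Ctsg* and replicates 1 and 2 for *Ly86*. *Csf1r* was low in all 3, at 2.65, 4.81 and 4.23 CPM against 7.11, 27.3 and 43.9 CPM in yHSCs.

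Between the paHSC fractions, *Csf1r* was higher in Selp_high paHSCs (2.37, adjusted p = 0.0201 by DESeq2), at 7.80, 36.9 and 16.6 CPM. *Cyba*, a subunit of the phagocyte oxidase, was lower (-1.97, adjusted p = 0.0181), at 214, 176 and 343 CPM against 528, 941 and 1378 CPM. The median log2 fold change of the 26 genes was -0.75 in this comparison, -0.22 in Selp_high paHSCs over yHSCs and 0.66 in Selp_low paHSCs over yHSCs. With the replicate number as a block, which pairs the libraries of both paHSC fractions, DESeq2 called 6 of 24 partners, 3 of 16 other factors and 5 of 26 receptor, granule and effector genes between the fractions, and still none of the 10 lineage factors. The share of all genes it called was then 9.17%, against 2.21% without the block. Without Selp_low replicate 3 and without the block it called 3, 3 and 10 of them, and in Selp_low paHSCs over yHSCs 6 partners and 12 receptor, granule and effector genes, where the counts with all libraries were 1 and 3. In that setting DESeq2 called 5.43% and 8.43% of all genes in these comparisons, against 2.21% and 2.89% with all libraries. Leaving out other libraries moved the counts in both directions. DESeq2 called 0 partners between the fractions without Selp_low replicate 2 or Selp_high replicate 1 or 3, 0 in Selp_high paHSCs over yHSCs without yHSC replicate 2 or 3 or Selp_high replicate 2, and 0 in Selp_low paHSCs over yHSCs without yHSC replicate 2 or 3 or Selp_low replicate 2. Of the receptor, granule and effector genes, 0 were called between the fractions without Selp_low replicate 2, and 0 in Selp_low paHSCs over yHSCs without yHSC replicate 2 or 3. In Selp_high paHSCs over yHSCs the count of these ran from 1, without yHSC replicate 2 or 3, to 6, without Selp_high replicate 3 (4.36% of all genes).

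**Figure D5:**
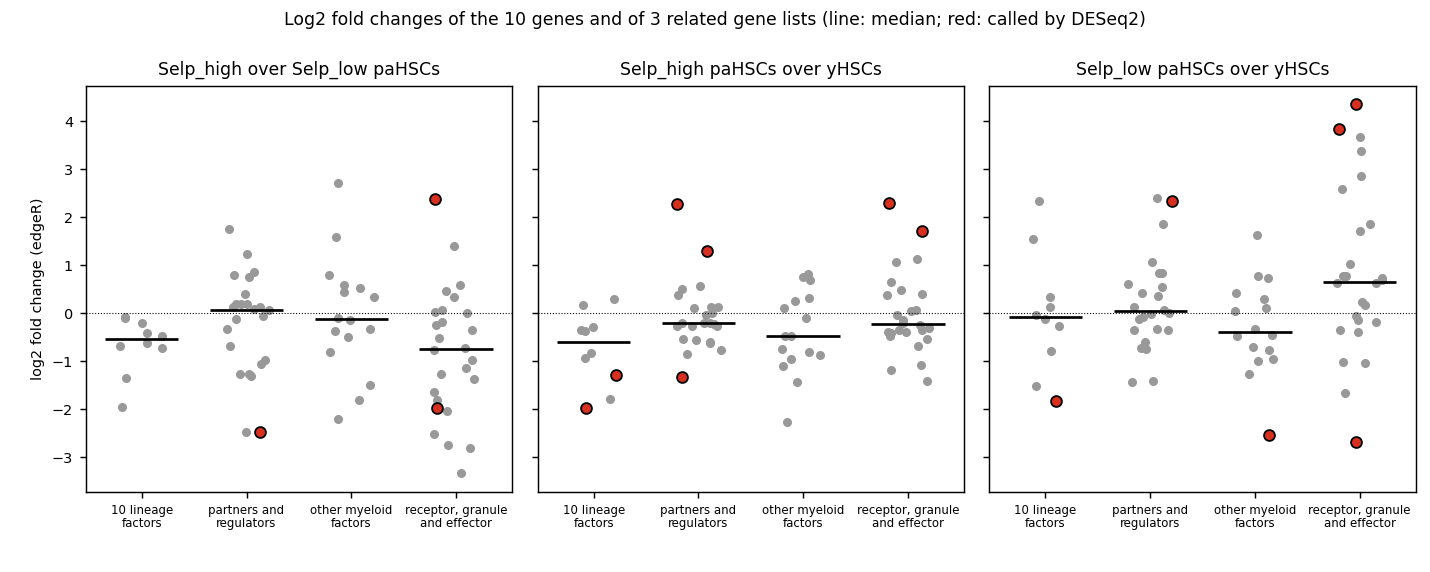
Log2 fold change by edgeR (vertical axis) of the 10 lineage factors, 24 partners and regulators, 16 other myeloid factors and 26 receptor, granule and effector genes in the 3 comparisons, with a line at the median of each list and genes called by DESeq2 in red. Genes of the 3 related lists lie on both sides of 0 and few are called. The 10 lineage factors are all below 0 in the first panel.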

How the data were processed

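RNA-seq libraries of sorted mouse HSCs (9 in 3 groups, assigned by their titles) were analysed from the counts that the authors deposited, which are raw whole-number reads per gene with no normalization, on mm39 per the labels. The authors synthesized cDNA from low-input RNA, used fastp for trimming, HISAT2 (v2.2.1) for alignment and featureCounts (v2.0.6) for counting. For the gene annotation, strandedness and multiply mapped reads, the choices were not given in the sources used here. No column of per-sample values was left out.

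Each pair of groups was fitted alone. edgeR (v4.0.16; filterByExpr, TMM factors, quasi-likelihood test with the legacy setting) was run in R 4.3.3 beside DESeq2 (v1.42.0; defaults, genes with at least 1 count), both with Benjamini-Hochberg adjustment over all genes. Levels are CPM with TMM factors of all 9 libraries. Correlations were computed on log2 CPM (prior count 2). The floor of a library was set at 3 counts and covers counting error only. Steps were tested on simulated data with 200 changed genes. Plots were made with matplotlib 3.10.9 (Python 3.11.15).

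Named genes were the 10 factors, list genes called by either tool (at most 4 per direction) and at most 3 further genes of large change per list, defining marker genes, and the 3 genes nearest to *Gfi1*, *Runx2*, *Spi1* and *Cebpa*. Some genes of these lists are not reported here. The genes and lists were chosen with earlier results of these data known. To check whether libraries with the same replicate number are paired, their deviations from the group means were correlated. The coefficients were 0.177, 0.277 and 0.303 for both paHSC fractions, all above the 0.1 taken as pairing, and -0.417 to 0.0917 with yHSCs. Alternatives covered normalization, filtering, the edgeR setting, 1 fit of all 9 libraries, no fold minimum, a replicate block, and each library left out in turn.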

Additional observations from a re-analysis of the deposited data

How the results depend on the processing

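Depth was ample for the 10 genes, which were above the floor in every library, so the limits were the 3 libraries per group, their mixed markers of mature cells and the choice of tool. With no filter on low counts edgeR called 1 of the 10 genes in Selp_high paHSCs over yHSCs and 1 in Selp_low paHSCs over yHSCs, where it called 0 otherwise and DESeq2 called 2 and 1. Without that filter edgeR called 1.14% and 0.836% of all genes in these comparisons. In Selp_high paHSCs over yHSCs, DESeq2 called 1 without independent filtering (1.19% of all genes) and 1 in a fit of all 9 libraries (2.08%). Leaving out 1 library gave 0 to 2 calls by DESeq2 between the paHSC fractions, 0 to 4 in Selp_high paHSCs over yHSCs and 0 to 6 in Selp_low paHSCs over yHSCs. Of all genes, DESeq2 then called 0.442% to 8.58%, 1.74% to 4.71% and 0.648% to 9.14% in the same order. The genes without overlap numbered 0 to 3, 3 to 5 and 1 to 7 in the same order, beside 24.8% to 37.9%, 18.6% to 30.2% and 19.9% to 48% of all genes. On CPM without factors they numbered 3 in Selp_low paHSCs over yHSCs. The share of all genes was not computed in that setting, so this count cannot be set against it. The cause of these changes was not tested.

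Against edgeR's log2 fold changes with all libraries, the alternatives, DESeq2 among them, gave 29 of opposite sign, 356 of the same direction and side of the threshold and 5 that newly passed it, namely *Runx2* in both comparisons with yHSCs without the filter and by DESeq2, and *Gfi1* by DESeq2. With a replicate block the values that reversed were 0.70 (*Cebpd*) and 0.34 (*Cebpe*) between the paHSC fractions, -0.98 (*Cebpe*) in Selp_high paHSCs over yHSCs, and 0.061 (*Runx3*), -1.14 (*Cebpd*) and -1.76 (*Cebpe*) in Selp_low paHSCs over yHSCs. The replicate block changed no call of the 10 genes by either tool; with yHSCs the libraries share only a number. For the related lists it moved DESeq2's calls from 2 to 5 of 26 effector genes in Selp_high paHSCs over yHSCs and from 3 to 1 in Selp_low paHSCs over yHSCs. Of all genes, DESeq2 called 3.7% with the block and 2.99% without it in Selp_high paHSCs over yHSCs. In Selp_low paHSCs over yHSCs these shares were 2.64% and 2.89%.

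When single libraries were omitted, log2 fold changes between the paHSC fractions ranged from -0.76 to 0.51 for *Gfi1*, -0.21 to 0.12 for *Runx2*, -0.18 to 0.013 for *Cbfb*, -1.04 to 0.26 for *Spi1*, -1.01 to 0.91 for *Cebpa*, -1.18 to 1.92 for *Cebpd* and -3.75 to 3.67 for *Cebpe*. In Selp_high paHSCs over yHSCs they ranged from -0.66 to 0.16 for *Cebpd*, -2.18 to 0.68 for *Cebpe* and -0.17 to 0.58 for *Irf8*. In Selp_low paHSCs over yHSCs they ranged from -0.48 to 0.26 for *Runx3*, -0.28 to 0.0031 for *Cbfb*, -1.16 to 0.086 for *Spi1*, -0.14 to 0.37 for *Cebpb*, -2.26 to 0.93 for *Cebpd* and -3.46 to 2.15 for *Cebpe*. *Gfi1*, *Runx2* and *Cebpa* stayed below 0 in both comparisons with yHSCs under every alternative run. Of these genes, only *Cebpa* was called by neither tool in any setting.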
